A study of Coturnix japonica with 24 samples.

Results

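The comparison set the liver's response to longer days against that of abdominal white adipose tissue in male Japanese quail (Coturnix japonica). Each tissue's longer-day libraries, 4 of birds held at 12 hours of light (labelled 12v) and 4 at 16 hours (16v), were pooled and set against 4 libraries of birds at 8 hours of light (8L). All birds came from long days of 16 hours of light before they were assigned, per the series' design text, and the study names no genetic or drug treatment. The labels give no bird's age. The genes were those listed in the expression tables of both tissues, 13286 of the 17239 listed in either, with the counts of a gene's transcripts summed. Of these, 3697 had enough counts in each tissue for a test, and 3462 of them carry a symbol. The quantity tested for each gene was its log2 change in liver minus its log2 change in adipose tissue. Poly(A) RNA was read as PCR-amplified cDNA on a Nanopore instrument, so a library holds far fewer reads than a short-read one.

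Day length is the signal by which quail time breeding and the storage of fat. In birds the liver is the main site of fatty acid synthesis, and it sends triglyceride to adipose tissue in lipoproteins. Adipose tissue takes up those fatty acids, stores them in lipid droplets and releases them by lipolysis. Thyroid hormone, insulin and carbohydrate supply raise the lipogenic enzymes of avian liver.

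The liver libraries held 72135 to 867225 counts at longer days and 525043 to 696440 at 8L, and the adipose libraries held 72727 to 1350561 and 351635 to 1389063. In the shallowest library of each tissue, liver 12v replicate 3 and adipose 16v replicate 2, a single count is worth 11.4 CPM (counts scaled to the library total and comparable between libraries). A value of 0 there allows a level of up to 34.1 CPM in that liver library and 34.2 CPM in that adipose library (3 counts, which covers counting error only, as PCR reads are not independent molecules). The labelled tissues carried their markers. ALB, serum albumin, was 52500 to 119000 CPM over the 12 liver libraries and at most 491 CPM in adipose tissue. FABP4, the fatty acid binding protein of adipocytes, was 13100 to 36500 CPM in the adipose libraries and at most 3.54 CPM in liver. The first principal component of 70 cytosolic ribosomal protein genes, taken within each tissue and called the ribosomal score here, ran from -3.13 to 9.53 in longer-day livers, against -5.77 to -2.82 in 8L livers. It ran from -9.11 to 4.23 in longer-day adipose tissue, against -0.554 to 1.27 at 8L. The sign of such a component carries no direction, and the 3 livers with the highest scores had the 3 lowest mean levels of these genes. Their mean log2 CPM was 9.28 to 10.4 in longer-day livers, against 9.81 to 10.3 in 8L livers, and 8.83 to 10.3 in longer-day adipose tissue, against 9.73 to 9.96 at 8L.

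Longer days changed many genes in liver and 1 in adipose tissue by the test used, and the estimated changes were larger in liver. Over the 3697 genes the median size of the log2 change was 0.692 in liver and 0.278 in adipose tissue. A change of more than 1 on the log2 scale, in either direction, was estimated for 1145 genes in liver and 236 in adipose tissue. In this fit, which shares each gene's dispersion between tissues, the median SE of a change was 0.509 in liver and 0.494 in adipose tissue. With each tissue fitted alone it was 0.55 in liver and 0.41 in adipose tissue. In bulk tissue, fewer cells of a type and less RNA per cell cannot be told apart.

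By edgeR's quasi-likelihood test with Benjamini-Hochberg adjustment (threshold 0.05), the change differed between the tissues for 127 genes, 3.44% of those tested. It was higher in liver than in adipose tissue for 86 genes (2.33%) and lower for 41 (1.11%). Within the tissues, 447 genes (12.1%) passed in liver, 226 higher at longer days (6.11%) and 221 lower (5.98%), and 1 gene (0.027%) passed in adipose tissue. That gene was IGFBP2, which rose. At an unadjusted p under 0.05 the counts were 669 genes for the difference (18.1%), 1106 in liver (29.9%) and 137 in adipose tissue (3.71%). Bird numbers pair most libraries of the tissues, and with the bird as a block 2 of the 127 differences kept an adjusted p under 0.05 (0.0541% of genes tested). These were S100A10 and its near-identical locus. The other 125 had adjusted p from 0.0573 to 0.282 with the block, and all 127 kept their sign and an unadjusted p of at most 0.0242. The blocked fit leaves 9 residual degrees of freedom against 20 without it. With the ribosomal score added as a covariate, 15 genes passed, 13 of them among the 127, and in liver 7 of 8 longer-day libraries had a score above all of 8L. Among the genes named below, S100A10, MAN1A1, NRP1, TEX14, GK2, THRSP and CD36 passed with that covariate. The remaining named differences had edgeR adjusted p from 0.0576 to 0.309, with CYP27A1 and PAPSS2 not examined. Leaving out 1 library at a time gave 25 (without liver 8L replicate 2) to 262 genes (without liver 12v replicate 4).

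**Figure D1:**
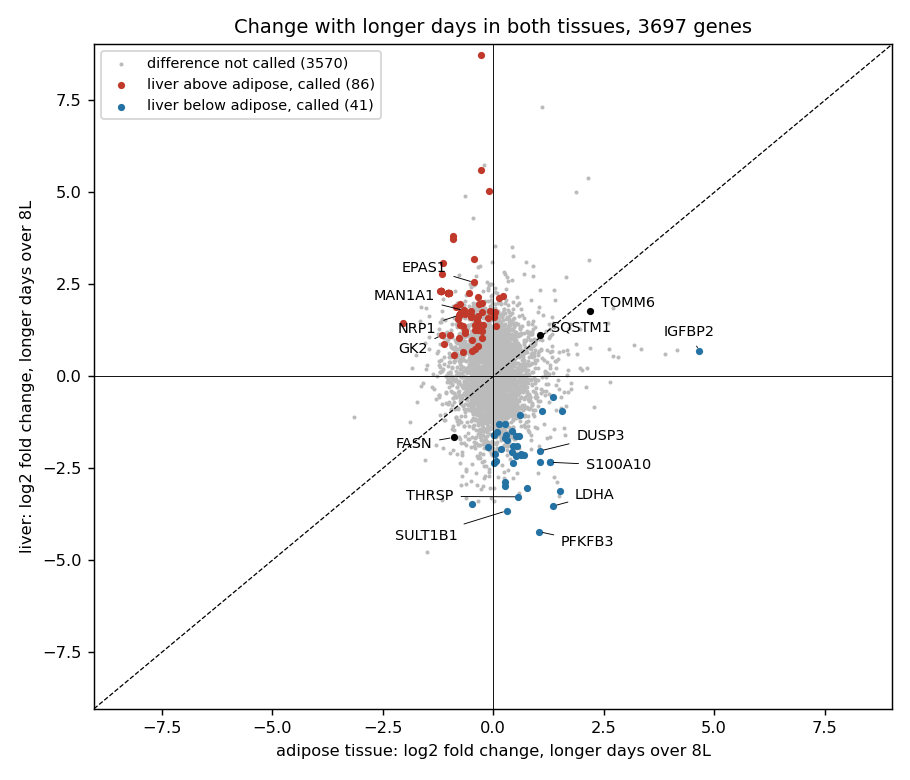
Log2 fold change with longer days over 8L in liver (vertical axis) against that in adipose tissue (horizontal axis) for each of 3697 genes, with the dashed line marking equal change. Red and blue points are the 86 and 41 genes whose difference passed, and 118 of these 127 lie further from 0 on the liver axis than on the adipose axis. Black points are named genes whose difference did not pass.

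No gene was called in both tissues, so the classes of shared and opposite calls held 0 genes each by edgeR, and limma-voom also gave 0. DESeq2 called 5 genes in both tissues. A response limited to liver, where the difference and the liver change passed and the adipose change did not, was found for 117 genes: 80 rose in liver and 37 fell. Over these 117 the median size of the change was 2.03 in liver and 0.571 in adipose tissue. The class rests on a test that did not pass in adipose tissue and does not show the absence of a change there. Of the 117, 109 had estimates of opposite sign and 15 had an unadjusted edgeR p under 0.05 in adipose tissue. MAN1A1, NRP1, DUSP3, S100A10 and GK2, described below, belong to this class. The remaining 10 differences were IGFBP2, the response limited to adipose tissue, and 9 genes for which neither tissue's own change passed. At an unadjusted p under 0.05 in each tissue, 18 genes were higher in both (0.487%), 1 was lower in both (0.027%), 27 were higher in liver and lower in adipose tissue (0.73%), and 9 were lower in liver and higher in adipose tissue (0.243%). In adipose tissue 3.71% of all genes tested had such a p, no more than a threshold of 0.05 gives where nothing changes. These 4 patterns are thus values and not calls. Across all genes the estimates had the same sign in both tissues for 48.6%, and the Pearson correlation of the changes was -0.05. Of the 127 differences, 118 had estimates of opposite sign, which a choice by the size of the difference favours.

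Loci with near-identical counts inflate the number of genes, since 1 read may have counted at more than 1 of them. Of the 127 genes, 102 remained after each set of near-identical genes was counted once. The largest sets among the 127, of 13 and 10 loci, carry locus numbers only. Over the genes listed in both tables, the numbered set with the most counts held 16 loci. It took 17.7, 9.57, 12.3 and 2.07% of the counts of the 8L livers. In longer-day livers it took 1.18 to 2.83%, apart from 13.3% in 12v replicate 4. In adipose tissue it took 12.6 to 22.4% at 8L and 2.97 to 25.0% at longer days. The part of this share in the calls was not tested. With near-identical loci without a symbol left out, also from the library totals, 65 genes passed for the difference, all of them among the 127. Only 26 of the 127 were such loci, so other genes lost their call in that fit too. The cause of that drop was not tested.

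Genes that moved apart in the tissues come first. They were named for a small p of the difference, which favours opposite movement in the same libraries. None of their adipose changes passed after adjustment. Of these genes, 3 separated the day lengths in both tissues in opposite directions, and the share of all genes that do so was not counted. The first is MAN1A1, a Golgi mannosidase that trims the sugar chains of glycoproteins. Its lowest, median and highest levels were 239, 408 and 591 CPM in the 8 longer-day livers, against 135, 136, 110 and 94.4 CPM in the 8L livers. In adipose tissue they were 51, 90.8 and 118 CPM at longer days, against 128, 125, 188 and 125 CPM at 8L. Every longer-day liver was thus above every 8L liver, and every longer-day adipose library was below every 8L one. Groups that do not overlap in this way were found for 136 genes higher in liver (3.68%), 142 lower in liver (3.84%), 22 higher in adipose tissue (0.595%) and 13 lower in adipose tissue (0.352%). MAN1A1 rose by 1.79 ± 0.31 in liver (log2 ± SE, edgeR adjusted p = 0.0013), its adipose estimate was -0.67 ± 0.28 (unadjusted p = 0.0238), and the difference was 2.46 ± 0.41 (adjusted p = 0.00341).

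NRP1 encodes neuropilin 1, a co-receptor for vascular endothelial growth factor and semaphorins. Longer-day livers held 53.1, 98.1 and 170 CPM (lowest, median and highest), against 37.5, 14.6, 33.1 and 35.4 CPM in 8L livers. Longer-day adipose libraries held 315, 496 and 625 CPM, against 812, 804, 931 and 802 CPM at 8L. The groups were again apart in both tissues, up in liver and down in adipose tissue. The difference was 2.43 ± 0.41 (edgeR adjusted p = 0.00348), from 1.67 ± 0.32 in liver and -0.77 ± 0.27 in adipose tissue (unadjusted p = 0.0084). MAN1A1 and NRP1 both had an adjusted p of 0.0573 with the bird as a block.

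DUSP3, a dual-specificity phosphatase that acts on MAP kinases, moved the other way. Its levels in longer-day livers were 0, 6.52 and 13.8 CPM, against 35, 48.5, 33.1 and 17.7 CPM in 8L livers. In longer-day adipose tissue they were 115, 162 and 271 CPM, against 86, 90.2, 32.3 and 113 CPM at 8L. All 8 longer-day livers were below, and all 8 longer-day adipose libraries above, the 8L libraries of their tissue. DUSP3 had 95 counts over all liver libraries. In the shallowest liver library, where 1 count is 11.4 CPM, its place rests on at most 1 count. The change was -2.03 ± 0.42 in liver and 1.06 ± 0.38 in adipose tissue (edgeR unadjusted p = 0.0109, adjusted p = 0.985). The difference was -3.09 ± 0.57 (edgeR adjusted p = 0.00555, and 0.0573 with the bird as a block).

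S100A10, a small calcium-binding family protein that partners annexin A2 at membranes, had the smallest p of the named differences. Longer-day livers held 110, 186 and 455 CPM, against 1080, 1010, 937 and 1170 CPM in 8L livers. Longer-day adipose tissue held 441, 1435 and 2860 CPM, against 566, 508, 471 and 863 CPM at 8L. No liver library crossed between the day lengths, and in adipose tissue 7 of 8 longer-day libraries were above all of 8L, with 16v replicate 3 (441 CPM) below them. The liver change was -2.33 ± 0.38 (edgeR adjusted p = 0.000886) and the adipose change 1.28 ± 0.41 (unadjusted p = 0.00495, adjusted p = 0.742). The difference of -3.61 ± 0.57 had an adjusted p of 0.00314, and of 0.00792 with the bird as a block. It passed under every alternative that was fitted. The locus LOC121107546 carries near-identical counts, so the reads of the pair cannot be told apart. ANXA2, its annexin partner, did not pass in liver (0.20), adipose tissue (0.72) or for the difference (-0.52).

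GK2, a glycerol kinase, the enzyme that turns glycerol into glycerol 3-phosphate, was higher in every longer-day liver: 299, 352 and 688 CPM, against 227, 257, 139 and 152 CPM in 8L livers. In adipose tissue it was 14.9, 41 and 50.1 CPM at longer days, against 116, 98.5, 43.1 and 80.5 CPM at 8L, where only 8L replicate 3 lay among the longer-day values. The change was 1.12 ± 0.34 in liver (edgeR adjusted p = 0.0331) and -1.17 ± 0.32 in adipose tissue (unadjusted p = 0.00136). The difference was 2.29 ± 0.47 (adjusted p = 0.0111; 0.0573 with the bird as a block).

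**Figure D2:**
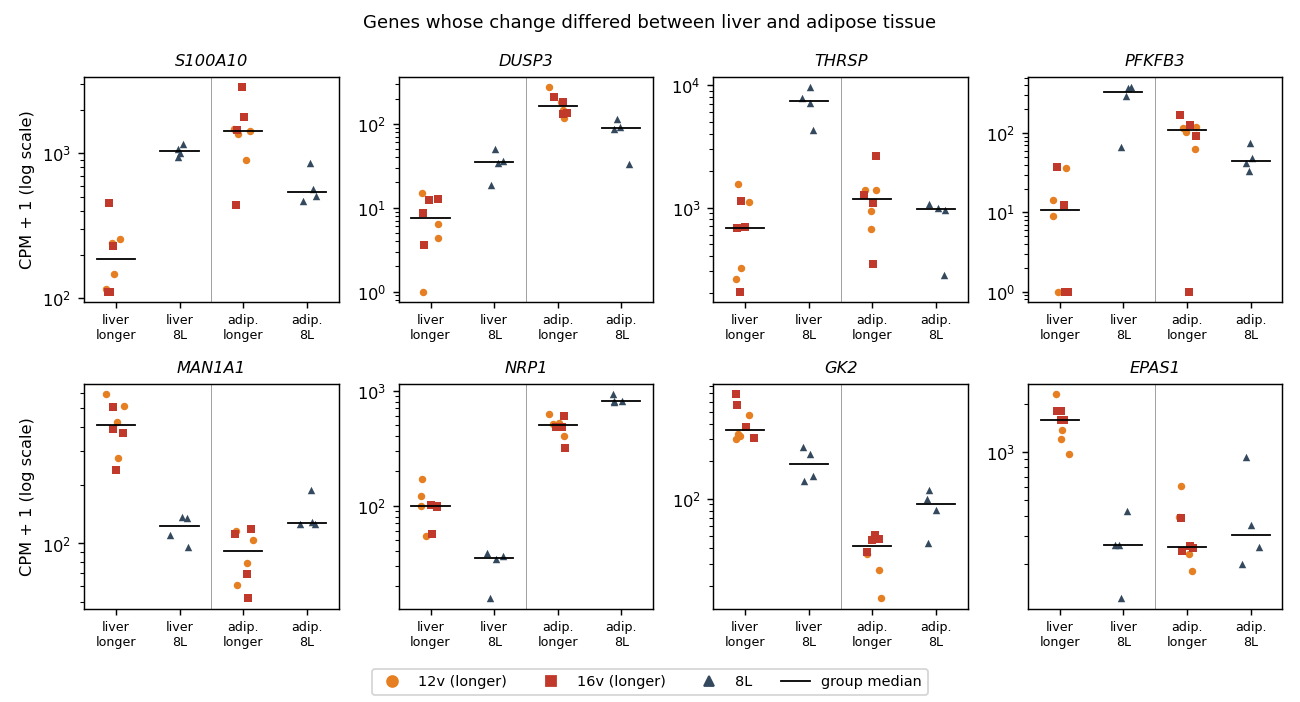
Level in each library, as CPM + 1 on a log axis, of 8 genes whose change differed between tissues, with longer-day libraries (circles 12v, squares 16v) left of 8L libraries (triangles) in each tissue and bars at group medians. S100A10 and DUSP3 are lower in longer-day livers and higher in most or all longer-day adipose libraries, MAN1A1 and NRP1 show the reverse, and THRSP, PFKFB3 and EPAS1 separate the day lengths in liver but overlap in adipose tissue.

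Of the 9 differences for which neither tissue's own change passed, COL3A1 falls under the naming rule and is given below with the matrix genes. The others were looked at after their values were seen. CYP27A1, the sterol 27-hydroxylase of bile acid synthesis, had estimates of -0.56 ± 0.28 in liver and 1.36 ± 0.32 in adipose tissue (difference -1.92 ± 0.42, edgeR adjusted p = 0.0176; 0.169 with the block). PAPSS2, which makes the sulfate donor for sulfation, had 1.45 ± 0.60 in liver and -2.03 ± 0.54 in adipose tissue (difference 3.48 ± 0.83, edgeR adjusted p = 0.0219; 0.0593 with the block). The sulfotransferase SULT1B1, which uses that donor, fell in liver. Longer-day livers held 0, 0.77 and 4.29 CPM of SULT1B1, against 42.5, 21.8, 24.3 and 20.6 CPM in 8L livers. Its level in longer-day adipose tissue was 46.2, 71.4 and 146 CPM, against 57, 84.9, 37.7 and 82.6 CPM at 8L. The liver groups did not overlap and the adipose groups did, with a difference of -3.96 ± 0.70 (edgeR adjusted p = 0.00555, and 0.0573 with the block). SULT1B1 had 59 counts over all liver libraries. Its 0 in the shallowest liver library allows up to 34.1 CPM, above the 8L values of 20.6, 21.8 and 24.3 CPM.

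Several genes of fatty acid synthesis fell in liver, and for 3 of them the change was lower in liver than in adipose tissue. Of 25 genes listed for lipogenesis, 16 were tested. In liver 6 fell and 1 rose, in adipose tissue 0 passed by edgeR (1, FASN, at an unadjusted p under 0.05), and the difference passed for 3, all lower in liver. The median log2 change of the 16 was -1.21 in liver and -0.09 in adipose tissue, beside 0.12 and -0.01 over all genes tested. In liver 5.98% of all genes tested fell and 6.11% rose, and 1.11% passed below 0 for the difference. The 6 that fell in liver were THRSP, SCD, ELOVL1, FASN, ME1 and ACLY, and the 1 that rose was ACSL1, which activates long-chain fatty acids. ACLY, which supplies acetyl-CoA, changed by -3.35 in liver and -1.15 in adipose tissue, and its difference did not pass (edgeR adjusted p = 0.374).

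THRSP, or Spot 14, a thyroid hormone-responsive protein that promotes lipogenesis, held 204, 685 and 1550 CPM in longer-day livers, against 7120, 7840, 9620 and 4330 CPM in 8L livers. In longer-day adipose tissue it was 342, 1170 and 2660 CPM, against 953, 981, 277 and 1070 CPM at 8L. All longer-day livers were below all 8L livers, whereas the adipose groups overlapped and 5 of 8 longer-day libraries exceeded all of 8L. THRSP fell by 3.27 on the log2 scale in liver (SE 0.49, edgeR adjusted p = 0.000886), and its adipose estimate was 0.57 ± 0.52. The difference was -3.84 ± 0.75 (adjusted p = 0.00761; 0.0974 with the bird as a block). None of the other 3 tested genes of the thyroid hormone axis, NCOA1, NCOR1 and SLC16A10, passed in either tissue. Over all genes tested, 12.1% passed in liver and 0.027% in adipose tissue.

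SCD, the desaturase that makes monounsaturated fatty acids, held 0, 13.8 and 38.1 CPM in longer-day livers, against 112, 153, 252 and 45.7 CPM in 8L livers. Its adipose groups overlapped, at 11.4, 57.6 and 241 CPM for longer days against 83.1, 28.3, 26.9 and 74.4 CPM for 8L. The difference was -3.78 ± 1.03 (edgeR adjusted p = 0.0436). Without the adipose libraries rich in muscle markers described below it was -3.68 (adjusted p = 0.0575), and with the bird as a block -3.57 (0.201), and neither p was under 0.05. ELOVL1, an elongase of very long fatty acids, differed by -1.56 ± 0.41 (edgeR adjusted p = 0.0368; 0.201 with the block). Both calls lie near the threshold: with 1 library left out SCD ranged from -4.14 to -3.34 and passed in 11 of 24 fits, and ELOVL1 ranged from -1.75 to -1.45 and passed in 10 of 24.

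FASN, fatty acid synthase, was the gene nearest to a fall in both tissues. Longer-day livers held 286, 686 and 1190 CPM, against 2540, 2380, 2900 and 1250 CPM in 8L livers. Longer-day adipose tissue held 57.3, 71.8 and 192 CPM, against 178, 259, 75.3 and 146 CPM at 8L. The liver groups were apart, and the adipose groups overlapped, with 5 of 8 longer-day libraries below all of 8L. FASN fell by 1.66 in liver (SE 0.38, edgeR adjusted p = 0.00913), its adipose estimate was -0.90 ± 0.39 (unadjusted p = 0.0318, adjusted p = 1.00), and the difference of -0.76 ± 0.57 did not pass (adjusted p = 0.476). ME1, the malic enzyme that supplies NADPH to that pathway, likewise fell in liver (-1.71 ± 0.53, edgeR adjusted p = 0.0388) with an adipose estimate of -0.57 ± 0.57, and its difference did not pass (adjusted p = 0.447).

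Some lipid droplet genes fell in liver too. Of 18 listed, 6 were tested, 3 fell in liver (CIDEC, G0S2 and PLIN2), and CIDEC passed for the difference. Over all genes tested, 5.98% fell in liver and 3.44% passed for the difference. CIDEC, a protein that fuses lipid droplets in adipocytes, held 0, 6.42 and 63 CPM in longer-day livers, against 100, 67.9, 110 and 193 CPM in 8L livers. It held 505, 993 and 1270 CPM in longer-day adipose tissue, against 609, 922, 371 and 1250 CPM at 8L. The groups were apart in liver and overlapped in adipose tissue, where the gene is far more abundant. The difference was -3.15 ± 0.83 (edgeR adjusted p = 0.0368; 0.132 with the block), and with 1 library left out it ranged from -3.99 to -2.79 and passed in 13 of 24 fits. G0S2, which inhibits adipose triglyceride lipase, had a difference of -2.25 ± 0.64 (edgeR adjusted p = 0.0526), and PLIN2, a lipid droplet coat protein, one of -1.45 ± 0.46 (edgeR adjusted p = 0.0808). The 13 adipocyte markers other than THRSP summed to 148 to 444 CPM in longer-day livers, against 427 to 836 CPM in 8L livers. CIDEC is itself among these 13, so its own fall is part of that sum. With THRSP, 7 to 10 of 14 markers had counts in 8L livers and 3 to 10 in longer-day livers. FABP4 was 0 in 9 of 12 liver libraries and PLIN1 in 12 of 12. The part of these markers in the result was not tested.

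CD36, a fatty acid translocase, rose in liver. Longer-day livers held 981, 1400 and 1670 CPM, against 830, 640, 872 and 779 CPM in 8L livers, with no overlap. Longer-day adipose tissue held 3710, 5415 and 6920 CPM, against 6970, 6360, 8480 and 6460 CPM at 8L, where 5 of 8 lay below all of 8L. The difference was 1.16 ± 0.32 (edgeR adjusted p = 0.0443; 0.206 with the block), and with 1 library left out it ranged from 1.05 to 1.22 and passed in 7 of 24 fits. Cholesterol synthesis had 10 genes tested, of which 3 fell in liver (DHCR7, SC5D and SREBF2) and 0 passed in adipose tissue or for the difference by edgeR. In adipose tissue 0 of the 10 had an unadjusted p under 0.05. The estimates were below 0 for 8 of the 10 in liver and for 9 in adipose tissue. Their medians were -0.90 and -0.26, beside 0.12 and -0.01 over all genes tested. Among all genes tested, 5.98% fell in liver and 3.71% had an unadjusted edgeR p under 0.05 in adipose tissue.

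Several genes of glucose use fell in liver, with no call in adipose tissue. Of 12 glycolytic genes tested, 6 fell in liver (PFKFB3, LDHA, GAPDH, TPI1, PGAM1 and PFKFB1), 0 passed in adipose tissue and 3 passed for the difference. Their median log2 change was -1.45 in liver and 0.28 in adipose tissue, beside 0.12 and -0.01 over all genes tested. Of all genes tested, 5.98% fell in liver and 1.11% passed below 0 for the difference. PFKFB3 makes fructose 2,6-bisphosphate, the activator of glycolysis. It was 0, 9.64 and 36.8 CPM in longer-day livers, against 377, 291, 373 and 64.9 CPM in 8L livers. In longer-day adipose tissue it was 0, 108 and 169 CPM, against 73.4, 47.2, 32.3 and 40.8 CPM at 8L. The liver groups were apart, 6 of 8 longer-day adipose libraries exceeded all of 8L, and the 0 belonged to the shallowest library. The change was -4.22 ± 0.70 in liver and 1.04 ± 0.71 in adipose tissue, a difference of -5.26 ± 1.05 (edgeR adjusted p = 0.00844; 0.166 with the block).

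LDHA, lactate dehydrogenase A, and GAPDH, glyceraldehyde 3-phosphate dehydrogenase, differed by -4.88 ± 1.17 (edgeR adjusted p = 0.0219) and -3.37 ± 0.91 (edgeR adjusted p = 0.0409). LDHA held 40.2, 77.4 and 145 CPM in longer-day livers, against 1120, 781, 1870 and 180 CPM in 8L livers. Its adipose levels were 3.74, 24 and 246 CPM at longer days, against 27.1, 10.6, 18.8 and 46.9 CPM at 8L. The highest adipose values, of 246, 136 and 79.9 CPM, were those of 16v replicate 4, 12v replicate 2 and 16v replicate 2. These libraries also had the highest sums of 14 muscle markers, 66600, 9450 and 7530 CPM, and the sum was 86.8 to 66600 CPM over the longer-day adipose libraries, against 132 to 3730 CPM at 8L. Without them the difference was -2.65 for LDHA (edgeR adjusted p = 0.078) and -2.46 for GAPDH (adjusted p = 0.0869), and neither passed. PFKFB3, at -5.66 (adjusted p = 0.00627), did. With the bird as a block the difference was -3.37 for LDHA (adjusted p = 0.251) and -3.43 for GAPDH (0.0603). LDHA was lower in all 8 longer-day livers, where the summed muscle markers were at most 132 CPM. Leaving out 1 library kept LDHA in 19 of 24 fits and GAPDH in 11 of 24 (highest adjusted p 0.0682 without adipose 8L replicate 1, and 0.102 without adipose 8L replicate 3).

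Gluconeogenesis and glycogen metabolism, taken as 1 list, gave 2 differences among 8 genes tested, with 3 lower in liver and 0 called in adipose tissue. The shares over all genes tested were 3.44% for the difference and 5.98% lower in liver. PHKG1, the catalytic subunit of the phosphorylase kinase of muscle, held 15.5, 45.8 and 66.9 CPM in longer-day livers, against 125, 209, 265 and 115 CPM in 8L livers. Its adipose levels were 37.2, 79.2 and 167 CPM at longer days, against 52.2, 43.6, 48.4 and 72.4 CPM at 8L. Only the liver groups were apart, and the difference of -2.73 ± 0.53 had an edgeR adjusted p of 0.00761 (0.135 with the block). It was -2.57 without the muscle-rich adipose libraries (adjusted p = 0.0082). PGM1, phosphoglucomutase, which links glucose 1-phosphate with glucose 6-phosphate, differed by -2.47 ± 0.57 (edgeR adjusted p = 0.0219; 0.0611 with the block, 0.0597 without liver 8L replicate 3). GFPT1, the first enzyme of the hexosamine pathway, differed by -2.81 ± 0.55 (edgeR adjusted p = 0.00761; 0.0573 with the block). It was 0, 12.4 and 20 CPM in longer-day livers, against 40, 65.5, 33.1 and 85.5 CPM in 8L livers, and 14.9, 20.6 and 28.4 CPM in longer-day adipose tissue, against 17.4, 14.2, 5.38 and 12.2 CPM at 8L.

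**Figure D3:**
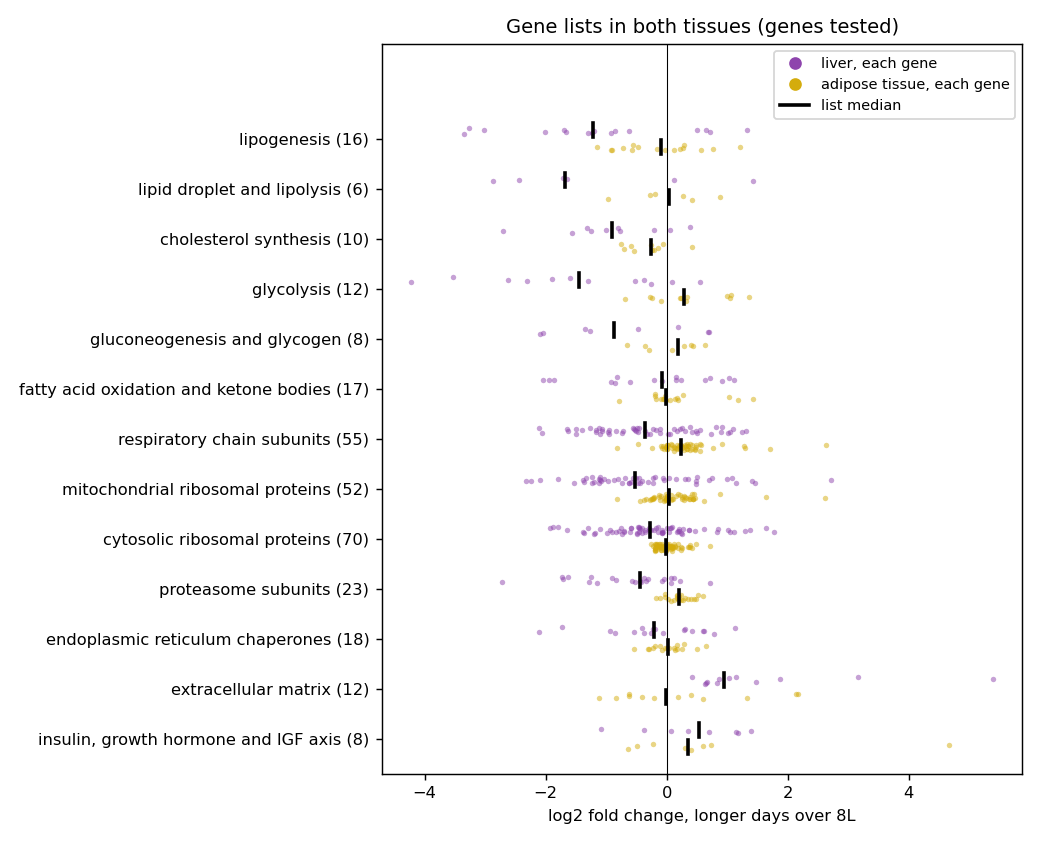
Log2 fold change with longer days over 8L of every tested gene of 13 lists, liver (purple) above adipose tissue (yellow) in each row, with black bars at list medians and the number of genes in brackets. Liver points lie left of 0 for most glycolytic and lipogenic genes and right of 0 for all 12 matrix genes, while adipose medians stay between -0.26 and 0.35.

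Several vascular and matrix genes rose in liver, with no call in adipose tissue. EPAS1, the oxygen-regulated transcription factor HIF-2alpha, held 970, 1575 and 2290 CPM in longer-day livers, against 427, 262, 263 and 121 CPM in 8L livers. In longer-day adipose tissue it held 179, 255 and 613 CPM, against 349, 256, 934 and 199 CPM at 8L. The liver groups were apart and the adipose groups overlapped. The change was 2.55 ± 0.44 in liver (edgeR adjusted p = 0.00136) and -0.44 ± 0.38 in adipose tissue, a difference of 2.99 ± 0.57 (adjusted p = 0.00657; 0.0573 with the block). Of the 7 tested genes of the hypoxia-inducible factor system, EPAS1 was the only one to pass in liver or for the difference. Over all genes tested, 12.1% passed in liver and 3.44% for the difference, so 1 of 7 in liver does not set that list apart.

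CDH5, the cadherin of endothelial junctions, held 41.3, 61.7 and 74.4 CPM in longer-day livers, against 20, 9.7, 26.5 and 25.1 CPM in 8L livers. It held 49.8, 85.9 and 245 CPM in longer-day adipose tissue, against 148, 147, 288 and 159 CPM at 8L. All longer-day livers were above 8L, and 6 of 8 longer-day adipose libraries were below it. The difference was 2.35 ± 0.54 (edgeR adjusted p = 0.0219; 0.0675 with the block, 0.0656 without liver 8L replicate 2). COL4A1, a collagen of basement membranes, was 53.1, 98.8 and 156 CPM in longer-day livers, against 7.5, 14.6, 37.6 and 44.2 CPM in 8L livers. Its longer-day adipose levels were 186, 347 and 669 CPM, against 493, 530, 1080 and 459 CPM at 8L. It too was above all of 8L in every longer-day liver, with 7 of 8 longer-day adipose libraries below 8L, and differed by 2.72 ± 0.57 (edgeR adjusted p = 0.0132; 0.0573 with the block, 0.0512 without liver 8L replicate 2).

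Of 12 matrix genes tested, all 12 estimates were above 0 in liver, of which COL4A1 and COL12A1 passed. The median change was 0.95 in liver and -0.02 in adipose tissue, beside 0.12 and -0.01 over all genes tested. Of all genes tested, 6.11% rose in liver. COL3A1, a fibrillar collagen of fibroblasts, held 79.5, 230 and 380 CPM in longer-day livers, against 122, 119, 170 and 114 CPM in 8L livers. Its adipose levels were 990, 3015 and 3740 CPM at longer days, against 6100, 7320, 3250 and 6750 CPM at 8L. The groups overlapped in both tissues, and the difference of 1.98 ± 0.52 passed (edgeR adjusted p = 0.0339; 0.193 with the block). Without the muscle-rich libraries COL3A1 differed by 1.90 (adjusted p = 0.0509), and with 1 library left out it ranged from 1.80 to 2.14 and passed in 14 of 24 fits. IGFBP7, a secreted binding protein of vessel walls, rose in liver by 1.17 ± 0.35 (edgeR adjusted p = 0.0295), and its difference was 1.81 ± 0.47 (adjusted p = 0.0302; 0.193 with the block), kept in 15 of 24 such fits.

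Endothelial marker sums were higher in every longer-day liver, and fibroblast marker sums lower in most longer-day adipose libraries. In adipose tissue the endothelial sums, and in liver the fibroblast sums, overlapped between day lengths. The 17 endothelial markers summed to 175 to 279 CPM in longer-day livers (median 245), against 90 to 137 CPM in 8L livers (median 91.4). In adipose tissue they summed to 808 to 2600 CPM at longer days (median 1240), against 1210 to 3420 CPM at 8L (median 1330). The 14 fibroblast and preadipocyte markers summed to 182 to 670 CPM in longer-day livers, against 232 to 360 CPM in 8L livers. Their sum was 2090 to 5690 CPM in longer-day adipose tissue (median 4660), against 4840 to 9120 CPM at 8L (median 8430). COL3A1 made up much of that adipose sum, with medians of 3015 CPM at longer days and 6425 CPM at 8L. Its own lower level is thus part of the lower sum. CDH5 is an endothelial marker and COL3A1 a fibroblast marker of these lists, and the part of cell numbers in the differences was not tested. The 25 hepatocyte markers summed to 105000 to 187000 CPM in longer-day livers, against 148000 to 193000 CPM in 8L livers. In adipose tissue they summed to 3580 to 18300 CPM at longer days, against 1840 to 6900 CPM at 8L. Only 5 to 11 of the 25 had a count in a longer-day adipose library, and 5 to 10 at 8L. The highest adipose sum, in 16v replicate 3, came from 5 genes, with ALB at 1.25 CPM there. A few genes thus carry the adipose sums.

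**Figure D4:**
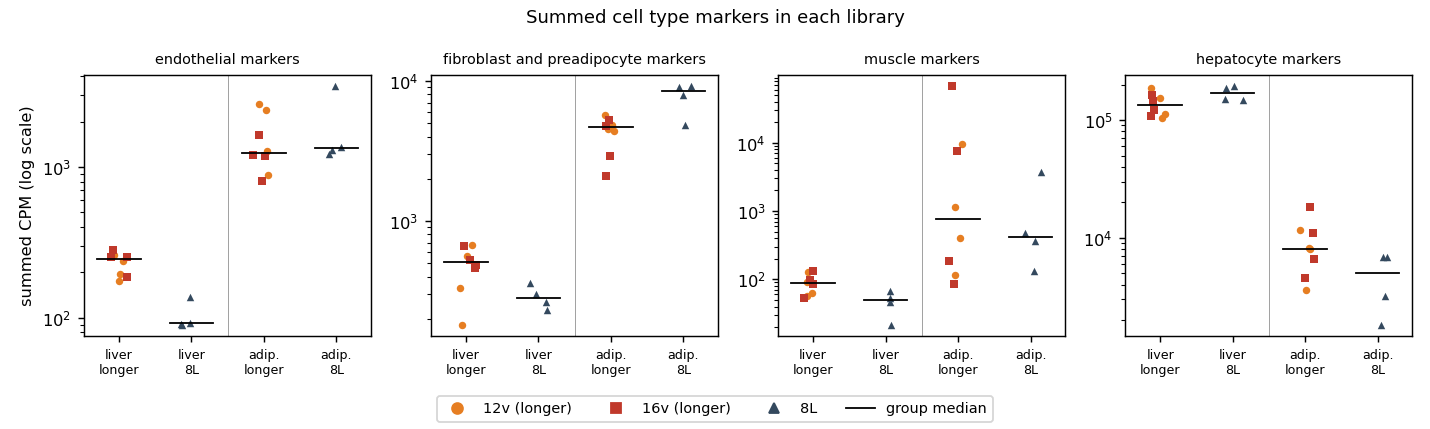
Summed CPM (log axis) of 4 lists of cell type markers in each library, with longer-day libraries (circles 12v, squares 16v) left of 8L libraries (triangles) in each tissue and bars at group medians. Endothelial sums are above 8L in every longer-day liver, fibroblast sums are below all of 8L in 6 of 8 longer-day adipose libraries, and muscle sums reach 66600 CPM in 1 longer-day adipose library. COL3A1 makes up much of the adipose fibroblast sums.

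Further genes rose in liver with an overlap in adipose tissue. CCDC152 held 1270, 1765 and 2500 CPM in longer-day livers, against 540, 281, 409 and 376 CPM in 8L livers. In adipose tissue it held 62.5, 95 and 142 CPM at longer days, against 86.9, 103, 53.8 and 92.7 CPM at 8L. Its difference was 1.96 ± 0.38 (edgeR adjusted p = 0.00761; 0.0877 with the block). In human, CCDC152 overlaps the gene of selenoprotein P, a liver-made plasma carrier of selenium, so reads of CCDC152 and SELENOP1 may not be separable here. SELENOP1 was 1120, 1440 and 1760 CPM in longer-day livers, against 465, 441, 521 and 283 CPM in 8L livers, and differed by 1.71 ± 0.43 (edgeR adjusted p = 0.0277; 0.178 with the block), kept in 16 of 24 fits that left out 1 library. Of the 9 selenoprotein genes tested it was the only one that rose in liver, and MSRB1 and SELENOK fell. Over all genes tested, 6.11% rose and 5.98% fell in liver.

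RHEB, the small GTPase that activates mTORC1, held 838, 962 and 1480 CPM in longer-day livers, against 465, 342, 387 and 372 CPM in 8L livers. It held 186, 208 and 354 CPM in longer-day adipose tissue, against 232, 354, 312 and 249 CPM at 8L. The liver groups were apart, and the difference was 1.62 ± 0.33 (edgeR adjusted p = 0.0111; 0.0877 with the block). MAN2A1, a second Golgi mannosidase that acts after MAN1A1, was 63, 100 and 170 CPM in longer-day livers, against 37.5, 31.5, 42 and 23.6 CPM in 8L livers. In longer-day adipose tissue it was 0, 7.25 and 15.5 CPM, against 15.5, 13, 13.5 and 10.2 CPM at 8L, levels of a few counts. It differed by 2.35 ± 0.49 (edgeR adjusted p = 0.0132; 0.104 with the block). TEX14 differed by 2.44 ± 0.45 (edgeR adjusted p = 0.00555; 0.0573 with the block), and it shares near-identical counts with 3 numbered loci, so the gene behind its reads is uncertain.

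Some genes of protein synthesis and breakdown fell in liver, with no call in adipose tissue. EEF2, the elongation factor that moves the ribosome along mRNA, held 45.4, 72.7 and 136 CPM in longer-day livers, against 297, 233, 258 and 170 CPM in 8L livers. Its adipose levels were 181, 226 and 288 CPM at longer days, against 188, 189, 180 and 202 CPM at 8L, with 6 of 8 above all of 8L. The difference was -1.88 ± 0.37 (edgeR adjusted p = 0.00844; 0.0603 with the block). Of 23 proteasome genes, 6 fell in liver, 0 passed in adipose tissue, and PSMA1 (-2.15 ± 0.56, edgeR adjusted p = 0.0342; 0.259 with the block) and PSMA7 (-2.02 ± 0.52, adjusted p = 0.0291; 0.193 with the block) passed for the difference. The estimated difference was below 0 for 21 of the 23. The median difference over all genes tested was 0.09, with 5.98% lower in liver and 1.11% passing below 0 for the difference.

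Of 70 cytosolic ribosomal protein genes, 4 rose and 12 fell in liver, and RPL36A (-1.43 ± 0.35, edgeR adjusted p = 0.0245; 0.121 with the block) was lower in liver by the test of the difference. Of 55 respiratory chain genes, 1 rose and 9 fell in liver, and UQCRQ, a subunit of complex III, passed for the difference (-1.91 ± 0.53, edgeR adjusted p = 0.0464; 0.249 with the block). In adipose tissue 45 of the 55 estimates were above 0 and 0 passed. Mitochondrial ribosomal proteins had 52 genes tested, 2 higher and 7 lower in liver, and 0 for the difference. Over all genes tested, 6.11% rose and 5.98% fell in liver, the difference passed below 0 for 1.11%, and the median adipose change was -0.01. ATF4, a transcription factor of the integrated stress response, was 6.65, 23.8 and 84.6 CPM in longer-day livers, against 107, 138, 124 and 142 CPM in 8L livers. Its difference was -2.14 ± 0.59 (edgeR adjusted p = 0.0437; 0.107 with the block). PSMA1, PSMA7, RPL36A, UQCRQ and ATF4 each lost the call in 5 to 17 of the 24 fits that left out 1 library.

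IGFBP2, which binds insulin-like growth factors in plasma and tissue, was the response limited to adipose tissue. Longer-day adipose libraries held 193, 540 and 1030 CPM, against 24.2, 8.85, 40.4 and 25.5 CPM at 8L. Longer-day livers held 0, 30 and 118 CPM, against 25, 24.3, 11 and 44.2 CPM in 8L livers. Every longer-day adipose library was above every 8L one, while the liver groups overlapped, with 3 longer-day livers above and 1 below all of 8L. IGFBP2 rose in adipose tissue by 4.66 ± 0.71 (edgeR adjusted p = 0.00325), its liver estimate was 0.70 ± 0.61 (adjusted p = 0.46), and the difference was -3.97 ± 0.86 (adjusted p = 0.0165; 0.126 with the block). Of 8 tested genes of the insulin and growth factor axis, RHEB and IGFBP7 passed higher in liver and IGFBP2 higher in adipose tissue. Over all genes tested, 6.11% passed higher in liver and 0.027% higher in adipose tissue. The receptors GHR and INSR did not pass in either tissue.

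A change common to both tissues was tested as the mean of the liver and adipose changes, which passed for 23 genes (0.622%), 13 higher (0.352%) and 10 lower (0.27%). A mean change can come mostly from 1 tissue, as for CCDC152, IGFBP2, SULT1B1, G0S2 and PLIN2, so the values of both are given. TOMM6, a small subunit of the mitochondrial import pore, held 11.4, 64.5 and 127 CPM in longer-day livers, against 15, 34, 22.1 and 16.2 CPM in 8L livers. It held 22.8, 48.8 and 121 CPM in longer-day adipose tissue, against 13.5, 17.1, 8.07 and 13.2 CPM at 8L. The adipose groups were apart, and in liver 6 of 8 exceeded 8L while the shallowest library (11.4 CPM, 1 count) fell below it. The change was 1.78 ± 0.52 in liver and 2.19 ± 0.53 in adipose tissue, with a mean of 1.98 ± 0.37 (edgeR adjusted p = 0.0199).

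SQSTM1, the autophagy receptor p62, held 227, 294 and 472 CPM in longer-day livers, against 160, 114, 183 and 100 CPM in 8L livers. In longer-day adipose tissue it held 164, 263 and 365 CPM, against 123, 186, 64.6 and 107 CPM at 8L. The liver groups were apart, and 5 of 8 longer-day adipose libraries exceeded all of 8L. Its estimates were nearly equal, 1.13 ± 0.31 in liver and 1.06 ± 0.31 in adipose tissue, and the mean was 1.10 ± 0.22 (edgeR adjusted p = 0.0207). The difference was 0.08 ± 0.42 and took either sign across alternatives, from -0.24 upward. MRPL51, of the mitochondrial ribosome, had 11.4, 21 and 44.3 CPM in longer-day livers, against 5, 0, 8.84 and 1.47 CPM in 8L livers. In adipose tissue it had 0, 31.1 and 56.1 CPM at longer days, against 3.86, 12.4, 13.5 and 11.2 CPM at 8L, levels of few counts in both. Its mean change was 2.18 ± 0.44 (edgeR adjusted p = 0.0207).

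On the lower side, FASN had a mean change of -1.28 ± 0.27 (edgeR adjusted p = 0.0321). BSG, or basigin, the chaperone of lactate transporters, held 68.2, 224 and 573 CPM in longer-day livers, against 727, 749, 950 and 894 CPM in 8L livers. Its longer-day adipose levels were 262, 310 and 388 CPM, against 368, 349, 643 and 501 CPM at 8L, with 6 of 8 below all of 8L. The mean change was -1.12 ± 0.22 (edgeR adjusted p = 0.0207). GSTA4, a glutathione transferase that detoxifies lipid aldehydes, leaned to adipose tissue, where it was 11.4, 42.2 and 67.2 CPM at longer days, against 182, 160, 43.1 and 167 CPM at 8L. In liver it was 548, 1325 and 2080 CPM at longer days, against 1440, 2820, 2080 and 2150 CPM at 8L. The change was -0.69 ± 0.39 in liver and -1.73 ± 0.40 in adipose tissue, and the mean was -1.21 ± 0.28 (edgeR adjusted p = 0.045). Without the muscle-rich adipose libraries the mean was -1.22 for FASN (adjusted p = 0.0747) and -1.22 for GSTA4 (adjusted p = 0.0691).

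**Figure D5:**
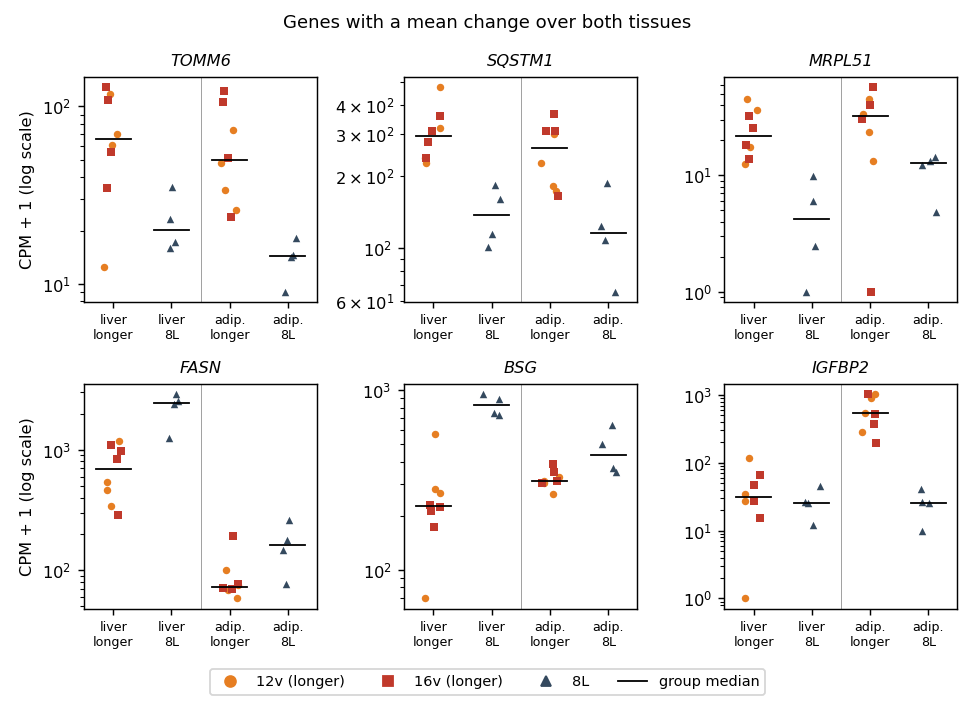
Level in each library, as CPM + 1 on a log axis, of 5 genes with a mean change over both tissues and of IGFBP2, with longer-day libraries (circles 12v, squares 16v) left of 8L libraries (triangles) in each tissue and bars at group medians. TOMM6, SQSTM1 and MRPL51 have higher medians at longer days in both tissues and FASN and BSG lower ones, while IGFBP2 separates the day lengths in adipose tissue only.

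Genes that 1 tissue expresses too weakly for the comparison were examined in a fit over 7107 genes. Of 694 genes with enough counts in liver only, 72 (10.4%) passed in liver, 56 of them higher at longer days. Of these 56, 38 carry locus numbers only, and 51 remained after loci with near-identical or identical liver counts were counted once; the 16 lower ones held 13 symbols. Of 2488 genes with enough counts in adipose tissue only, 0 (0%) passed in adipose tissue by edgeR, against 3 by limma-voom and 7 by DESeq2, with 91 at an unadjusted p under 0.05. FABP7, a fatty acid binding protein of the brain and, in birds, of the liver, was 84.4, 112 and 197 CPM in longer-day livers, against 837, 609, 1150 and 487 CPM in 8L livers. It was at most 1.43 CPM in longer-day adipose tissue and at most 1.02 CPM at 8L. Its liver change in that fit was -2.65 ± 0.38 (edgeR adjusted p = 0.000654). ADIPOQ, the adipocyte hormone adiponectin, was 57.3, 105 and 215 CPM in longer-day adipose tissue, against 144, 193, 199 and 120 CPM at 8L. Its groups overlapped (edgeR adjusted p = 1.00), and in liver it was at most 2.63 CPM at longer days and 9.7 CPM at 8L.

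The 12v and 16v libraries gave differences in the same direction for the genes named above whose difference passed, with CYP27A1 and PAPSS2 not examined. Those genes were chosen by the pooled fit of the same libraries, and both comparisons share the 8L libraries. Agreement in sign between 12v and 16v is thus favoured by the choice. Against 8L alone, 53 genes passed for 12v and 53 for 16v. S100A10 differed between the tissues by -3.55 at 12v (edgeR adjusted p = 0.00988) and -3.66 at 16v (adjusted p = 0.0171). MAN1A1 differed by 2.57 at 12v and 2.34 at 16v, NRP1 by 2.51 and 2.36, DUSP3 by -3.33 and -2.90, and IGFBP2 by -3.95 and -3.97, all past the threshold. CIDEC did not pass at 12v (-2.22, edgeR adjusted p = 0.205) and passed at 16v (-4.83, adjusted p = 0.0171). CDH5, COL3A1, IGFBP7, PGM1, PHKG1 and MAN2A1 likewise passed at 16v only. RHEB passed at 12v only (adjusted p = 0.0821 at 16v). LDHA, GAPDH, SCD, ELOVL1, CD36, SELENOP1, ATF4, PSMA1, PSMA7, RPL36A and UQCRQ passed at neither day length alone. The remaining named differences passed at both, apart from CYP27A1 and PAPSS2, which were not examined in this way. The difference between 12v and 16v was not tested for these genes.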

How the data were processed

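Expected counts per transcript were deposited by the authors in 1 table per tissue, from reads aligned with minimap2 and quantified with Salmon, per the submitters' processing notes, which give no versions. The build and annotation were not given in the sources used here, and 0 of the transcript accessions are in the quail RefSeq table, so symbols are those of the deposited tables. These expected counts are not normalized. Transcripts were summed per gene and rounded. Genes listed in both tables were kept where filterByExpr (minimum count 10, minimum total 15) kept them in each tissue's 12 libraries. All 24 libraries entered an edgeR 4.0.16 robust quasi-likelihood fit (R 4.3.3, trimmed mean of M values factors over library totals) with 4 means, longer days and 8L in each tissue. Adjusted p values are Benjamini-Hochberg over all 3697 genes, threshold 0.05, and SE is the size of a log2 change over the square root of F. CPM, counts scaled by library total and these factors, can be compared between libraries, so depth, from 72135 to 1389063 counts, limits low genes. The fit was tested on counts simulated from its own dispersions. These held no bird effect and no near-identical loci, so that test does not bear on how the calls depend on either.

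A response is limited to a tissue where the difference and that tissue's change pass and the other tissue's change does not. Named genes are up to 8 per direction with the smallest p, the 3 nearest to a change in both tissues per pattern, a panel of 12 genes, and up to 3 passing members of each of 32 lists. The genes, lists and comparison were chosen with earlier results of these data known.

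The descriptions number the birds. The same number was taken as the same bird, which the labels do not state, and 11 of 13 numbers occur in both tissues. The libraries of 16v replicate 4 carry 104 in adipose tissue and 108 in liver, and entered the block unpaired. Whether these numbers are of 1 bird is not stated. Deviations from the group means of such pairs correlated at -0.037 to 0.071, over 0.1 in 0 of 11 pairs. The bird as a block is given beside the results. The series' design text gives 12 birds, 4 per day length, so p-values measure the spread between birds and libraries together. Alternatives used limma 3.58.1 (voom), DESeq2 1.42.0, other factors, filters and counting, and left out libraries. Figures used Python 3.11.15 with matplotlib 3.10.9. A gene that the naming rule selects is not reported here.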

Additional observations from a re-analysis of the deposited data

Results flagged for a closer look

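Among 276 groups of 4 libraries examined gene by gene, 30 held 1 library far from the other 3, and chance alone gives about 1 such group in 20. Adipose 8L replicate 3 stood apart for 6 genes: high for CDH5 (288 CPM), COL4A1 (1080 CPM), MAN1A1 (188 CPM) and NRP1 (931 CPM), and low for GSTA4 (43.1 CPM) and THRSP (277 CPM). The shallow adipose 16v replicate 2 was low for GSTA4 (11.4 CPM) and at 0 CPM for MAN2A1, MRPL51 and PFKFB3. Other adipose libraries apart from their group were 12v replicate 3 for ADIPOQ (94.5 CPM), 12v replicate 4 for S100A10 (904 CPM) and FABP7 (1.43 CPM), 16v replicate 1 for FASN (192 CPM), 16v replicate 3 for EPAS1 (386 CPM), 8L replicate 1 for MRPL51 (3.86 CPM) and 8L replicate 4 for FABP7 (1.02 CPM).

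In liver, 12v replicate 2 was high for LDHA (95.6 CPM) and low for TEX14 (1100 CPM), and 12v replicate 4 was high for PHKG1 (66.9 CPM). Liver 16v replicate 1 was high for COL3A1 (380 CPM) and MAN2A1 (119 CPM) and low for UQCRQ (455 CPM). Liver 16v replicate 2 was high for PLIN2 (209 CPM) and ADIPOQ (2.63 CPM), and 16v replicate 3 was low for NRP1 (55.6 CPM). Liver 8L replicate 2 was low for NRP1 (14.6 CPM), 8L replicate 3 was high for COL3A1 (170 CPM) and low for ELOVL1 (159 CPM), and 8L replicate 4 was low for PFKFB3 (64.9 CPM). For FABP7 in adipose 12v and 8L and for ADIPOQ in liver 16v, the other libraries of the group held 0 counts. Any count is flagged in such a group, and these flags rest on 2, 1 and 2 counts.

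The tested difference between the tissues marked 34 named genes, as log2 change in liver minus log2 change in adipose tissue. It was above 0 for EPAS1 (2.99), COL4A1 (2.72), MAN1A1 (2.46), TEX14 (2.44), NRP1 (2.43), CDH5 (2.35), MAN2A1 (2.35), GK2 (2.29), COL3A1 (1.98), CCDC152 (1.96), IGFBP7 (1.81), SELENOP1 (1.71), RHEB (1.62) and CD36 (1.16). It was below 0 for PFKFB3 (-5.26), LDHA (-4.88), IGFBP2 (-3.97), SULT1B1 (-3.96), THRSP (-3.84), SCD (-3.78), S100A10 (-3.61), GAPDH (-3.37), CIDEC (-3.15), DUSP3 (-3.09), GFPT1 (-2.81) and PHKG1 (-2.73). Smaller differences below 0 were those of PGM1 (-2.47), PSMA1 (-2.15), ATF4 (-2.14), PSMA7 (-2.02), UQCRQ (-1.91), EEF2 (-1.88), ELOVL1 (-1.56) and RPL36A (-1.43).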

How the results depend on the processing

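Counts of genes that passed, against 127 for the difference, 447 in liver, 1 in adipose tissue, 23 for the mean change, 117 limited to liver and 0 in both tissues, moved by more than 1.5 times as follows. For the difference the count was 347 with DESeq2, 247 with limma-voom, 346 with 1 transcript per gene, 65 without near-identical loci, 53 for 12v alone, 53 for 16v alone, 15 with the ribosomal protein covariate and 5 with no count filter. The replicate block by bird gave 2. In liver it was 814 with DESeq2, 726 with 1 transcript, 275 for 16v, 136 for 12v, 263 without the 3 liver libraries of highest ribosomal score, 143 with each tissue alone and 37 with the covariate. In adipose tissue it was 15 with DESeq2, 5 with 1 transcript and 0 with the stricter filter, which leaves IGFBP2 out. The mean change gave 254 with DESeq2, 135 with limma-voom, 267 with 1 transcript, 60 with the stricter filter, 35 with RLE factors, 35 without the shallowest libraries, 11 with the filter over all libraries, 10 with the covariate, 7 with the replicate block by number, 6 with no filter and 2 for 12v. Responses limited to liver numbered 306 with DESeq2, 227 with limma-voom, 319 with 1 transcript, 58 without near-identical loci, 47 for 12v, 45 for 16v, 7 with the covariate and 5 with no filter. Genes called in both tissues numbered 5 with DESeq2 and 3 with 1 transcript. The cause of these shifts was not tested. With the block by number, chosen after seeing the data, the difference gave 96 genes.

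Leaving out 1 library gave 25 to 262 genes for the difference, 207 to 680 in liver, 1 to 2 in adipose tissue, 4 to 182 for the mean change, 23 to 244 limited to liver and 0 in both tissues. The difference moved by more than 1.5 times without liver 8L replicate 2 (25) or 3 (28), adipose 8L replicate 1 (41), 2 (32) or 3 (53), and liver 12v replicate 4 (262). The share of differences above 0 was 67.7%, against 76.9% with library size alone, 79.2% for 12v, 52.8% for 16v, 56.1% with 1 transcript, 49.6% with DESeq2 and 45.7% with limma-voom. Library size alone moved the median difference of all genes to 0.24, against 0.09. DESeq2 called 120 of the 127 and limma-voom 118.

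Of 2508 values of named genes under alternatives, 9 changed sign. The difference of SQSTM1 (0.08) was -0.15 for 16v, -0.22 with 1 transcript, -0.02 with the covariate, and -0.24 to 0.26 with 1 library left out. That of TOMM6 (-0.41) was 0.35 with the covariate. Leaving out the 3 adipose libraries richest in muscle markers, chosen after seeing the data, gave 132 differences. Values of few counts are limited by the shallow libraries.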

Other observations

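Several lists held no gene whose difference between the tissues passed. Of 5 circadian clock genes, 9 complement genes, 4 iron genes and 3 lipoprotein assembly genes tested, 0 passed by edgeR in liver, in adipose tissue or for the difference. The shares over all genes tested were 12.1% in liver, 0.027% in adipose tissue and 3.44% for the difference. In lists of 3 to 9 genes, 0 is near those shares and does not set these genes apart. The median difference was 0.20 for the clock genes, -1.23 for complement (7 of 9 below 0), 0.35 for the iron genes and -0.91 for lipoprotein assembly (3 of 3 below 0), beside 0.09 over all genes. Of 17 genes of fatty acid oxidation and ketone bodies, 1 rose and 2 fell in liver and 0 passed for the difference, with a median log2 change of -0.08 in liver and -0.01 in adipose tissue. All 6 annexin and S100 genes had a difference below 0, of which S100A10 passed.

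Among genes with enough counts in liver only, some were looked at after their values were seen. HMOX1, which breaks down heme, fell by 2.22 on the log2 scale in liver (SE 0.56, edgeR adjusted p = 0.0226), and ANGPTL4, an inhibitor of lipoprotein lipase, by 2.32 (SE 0.59, adjusted p = 0.0232). MRC1, the mannose receptor of macrophages and liver sinusoids, rose by 1.98 ± 0.51 (edgeR adjusted p = 0.0232). The 18 leukocyte and macrophage markers, MRC1 among them, summed to 570 to 950 CPM in longer-day livers, against 427 to 2640 CPM in 8L livers. Of the 8 listed members tested in both tissues, 1 fell and 0 rose in liver. Their liver estimates were below 0 for 5 and above 0 for 3, with a median of -0.55. Over all genes tested, 5.98% fell and 6.11% rose in liver. The part of these markers in the result was not tested. NR1H3, the oxysterol receptor LXR alpha, had a mean change over both tissues of 0.93 ± 0.21 (edgeR adjusted p = 0.045), with 1.00 in liver and 0.86 in adipose tissue.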
